A study of Arabidopsis thaliana with 8 samples.

Results

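Guard cells of the *Arabidopsis* mutant bam1 were compared between heat-stressed plants and control plants, and the comparison rests on 4 of the 8 arrays of the study, chosen by the genotype and condition in their labels. Both groups carry the same T-DNA insertion in BAM1, which encodes a plastid β-amylase, and both come from this single insertion line. Plants were 5 weeks old. Control plants (bam1 control, n = 2) were kept at 22 °C by day and 18 °C by night, and heat-stressed plants (bam1 heat, n = 2) at 32 °C by day and 28 °C by night for 3 d. In each array the RNA of 5 to 8 plants was pooled as a biological replicate, guard cells were prepared from leaves, and material was taken at the end of a 12 h light period. Wild-type Col-0 guard cells were treated in the same way (n = 2 for each condition) and its 4 arrays are described only beside BAM1 and where the heat responses of the genotypes are compared, but they share the normalization, the filter on dim probes and the estimate of the spread.

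When temperature rises, unfolding proteins release heat shock transcription factors (HSFs) from their chaperones, and HSFs then switch on genes for further chaperones. Small heat shock proteins hold unfolded proteins, HSP70 and HSP90 refold them, and HSP100 proteins pull aggregates apart. Guard cells border the stomatal pore and open it by taking up ions and sugars. In the light they break down starch, for which BAM1 is a main enzyme, and abscisic acid (ABA) makes them release ions and close the pore.

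On each array, between 61.3% and 70.8% of 43603 probes were well above background in bam1, and arrays have no read depth, so their number limits the precision. Replicate 1 of every group was on slide 1 and replicate 2 on slide 2, so heat and control can be compared within each slide. Values of single arrays are given below as quantile-normalized log2 intensities, and a change is heat minus control in log2, so that 1 is a doubling. A feature, that is a probe, was called when its change exceeded 2-fold with an adjusted P below 0.05 in limma (Benjamini-Hochberg over all 29615 tested features). BAM1 (AT3G23920) itself stood at 6.81 and 6.87 in bam1 control and at 6.83 and 7.68 in bam1 heat, against 11.19 to 12.22 on the Col-0 arrays. All 4 bam1 arrays thus lay below all 4 Col-0 arrays, as their labels state. Its change with heat in bam1 was 0.41 (SE 0.35, adjusted P = 0.4), and it was not called. Where the BAM1 probe lies relative to the insertion was not examined.

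Marker lists were read to describe the cell types in the preparation. The study has no whole-leaf array among these 8, so enrichment of guard cells could not be checked, and detection of a marker does not show it. Each of the 4 bam1 arrays showed all 11 guard cell markers of the list well above background, and none was called between heat and control (median change -0.63, from -0.91 to 0.46). With scaling to the 75th percentile, or in the deposited log2 table, 2 of the 11 were called lower, TGG1 (-1.23) and KAT1 (-1.02), and KAT1 also without bam1 control replicate 2 (-1.14). TGG1, a myrosinase of guard cells, was the brightest at 15.44 and 16.04 in control and 15.19 and 14.99 in heat. The summed linear level of the 11 genes was 65504 and 87890 in control and 51579 and 47952 in heat. A 12th planned marker, AT1G22690, had been left out because the reference table gives it no marker name. It stood at 12.81 and 12.82 in control and 7.61 and 7.83 in heat, a change of -5.10 (SE 0.29, adjusted P = 0.000208), so that with it 1 of 12 guard cell markers was lower. Genes listed as markers of other cells were detected too, which does not by itself show those cells. All 9 mesophyll markers were well above background on the 4 arrays, with a summed level of 1148087 and 1220258 in control and 998442 and 927147 in heat, led by the light-harvesting gene CAB1. Their median change was -0.23 after quantile normalization and -1.04 with the 75th percentile or in the deposited table, so the size of their change depends on the scaling. Whether guard cells gave part of this signal was not examined. Of the 8 vascular markers, 2 were called higher and 1 lower (summed level 82224 and 74352 in control, 80632 and 84425 in heat). None of the 5 epidermis markers was called (summed level 64991 and 54115 in control, 111076 and 92568 in heat). LTP1, a lipid transfer protein, held most of that sum and was called higher with the replicate block (change 1.08, adjusted P = 0.0143). Fewer cells of a type and less RNA in each of its cells cannot be told apart in such RNA, and the part of the cell mixture in the results below was not tested.

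Heat changed a large share of the transcripts in the guard cell preparation. Of 29615 tested features, 6626 (22.4%) were called, 3244 higher (11.0%) and 3382 lower (11.4%). Counted once for each of 18468 loci, through the brightest probe, 2135 loci were higher (11.6%) and 2126 were lower (11.5%), and these are the shares against which the gene lists are read. The median change of all tested features was 0.01. Among features measured on all 4 arrays the extremes were uneven in direction. More than 4-fold changes numbered 559 upward and 544 downward, more than 16-fold changes 59 and 32, and more than 64-fold changes 15 and 2.

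The slides were compared feature by feature. A call favours features that agree between the slides, so the counts among called features are no separate support for agreement. Of the 6626 called features, 6601 changed in the same direction on both slides and 5301 did so by more than 2-fold on each. The changes on slide 1 and slide 2 correlated across all tested features (Pearson's r = 0.839, across features, which are not independent replicates). The array bam1 heat replicate 2 stood apart among dim features. Here 216 features fell more than 4-fold on slide 2 while on slide 1 they rose or fell by less than 0.5 in log2, against 17 with the slides exchanged. Only 21 of the 216 were well above background on bam1 heat replicate 2, compared with at least 215 on each of the other 3 bam1 arrays. Of these 216, 4 were called. Without that array 5601 features were called, 5107 of them among the 6626.

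**Figure D1:**
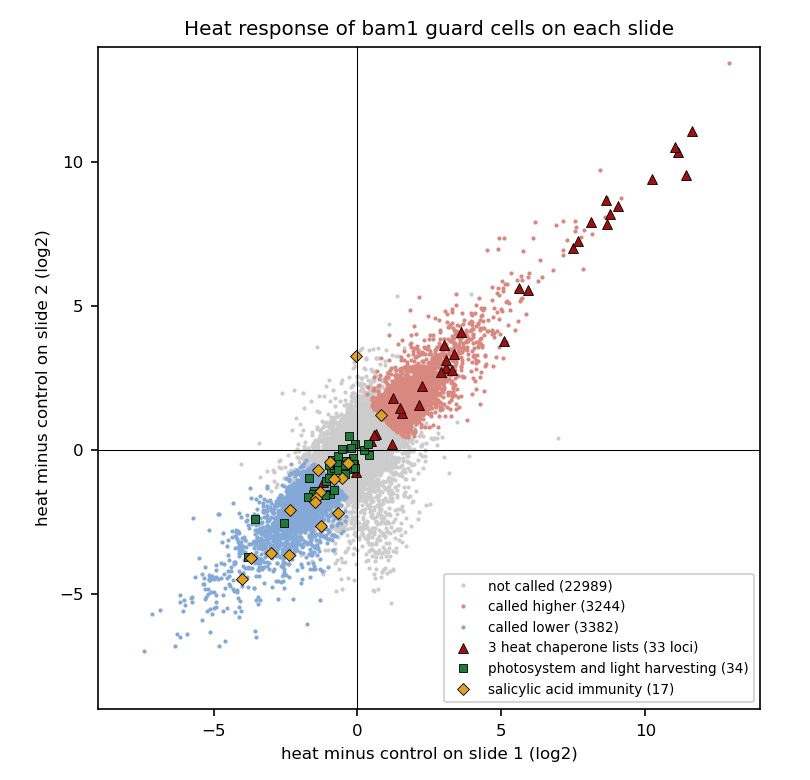
Heat minus control (log2) of every tested feature on slide 1 (horizontal) and slide 2 (vertical), with features called higher in red, called lower in blue and not called in grey, and the members of 5 gene lists marked. The heat chaperones lie at the upper right on both slides, and the grey tail below 0 on slide 2 holds the 216 features that fell on slide 2 only.

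Of the 10 largest rises measured on all 4 arrays, 5 were chaperones or partners in the heat lists and 4 were loci left out of the small heat shock protein list by its name check, while AT2G07722 is in no list. HSP70 (AT3G12580), a cytosolic heat-inducible chaperone, stood at 7.19 and 7.0 in control and 16.22 and 15.49 in heat, which is a 434-fold rise (change 8.76, SE 0.48, adjusted P = 0.00019). HOP3, which links HSP70 and HSP90, rose 361-fold, from 5.88 and 6.04 to 14.66 and 14.25. HSP90.1, the heat-inducible cytosolic HSP90, rose 306-fold, from 7.32 and 7.97 to 15.98 and 15.83. In each of these genes the control and heat arrays lay far apart relative to the spread between replicates. FKBP65, a peptidyl-prolyl isomerase, rose 176-fold and HSP18.2, a small heat shock protein, rose 152-fold. The remaining 5 were AT1G07400 (226-fold), AT2G29500 (192-fold), AT2G07722 (190-fold), AT5G51440 (162-fold) and AT1G59860 (125-fold). All 10 had an adjusted P of 0.00026 or lower.

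Several heat genes were not well above background without heat and have only a lower limit for their change. For the control mean, each array's value was raised to its dimmest probe well above background wherever the gene lay under it. AT1G53540 stood at 16.12 ± 0.59 in heat (mean ± SD, n = 2) and at 3.63 and 2.24 in control, at least 4359-fold higher (adjusted P = 0.000297). HSP22.0, a small heat shock protein of the endoplasmic reticulum (ER), was at least 968-fold higher, with 14.49 and 13.41 in heat and 2.87 and 2.32 in control. HSP23.6-MITO, a mitochondrial one, was at least 925-fold higher and HSP21, a plastid one, at least 596-fold higher. HSP17.4, a cytosolic member, was at least 464-fold higher. Altogether 314 features were well above background on both heat arrays and on neither control array, of which 276 were called higher. The reverse held for 435 features, of which 310 were called lower. Picking features by detection favours a call in that direction, so these counts are only a description.

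**Figure D2:**
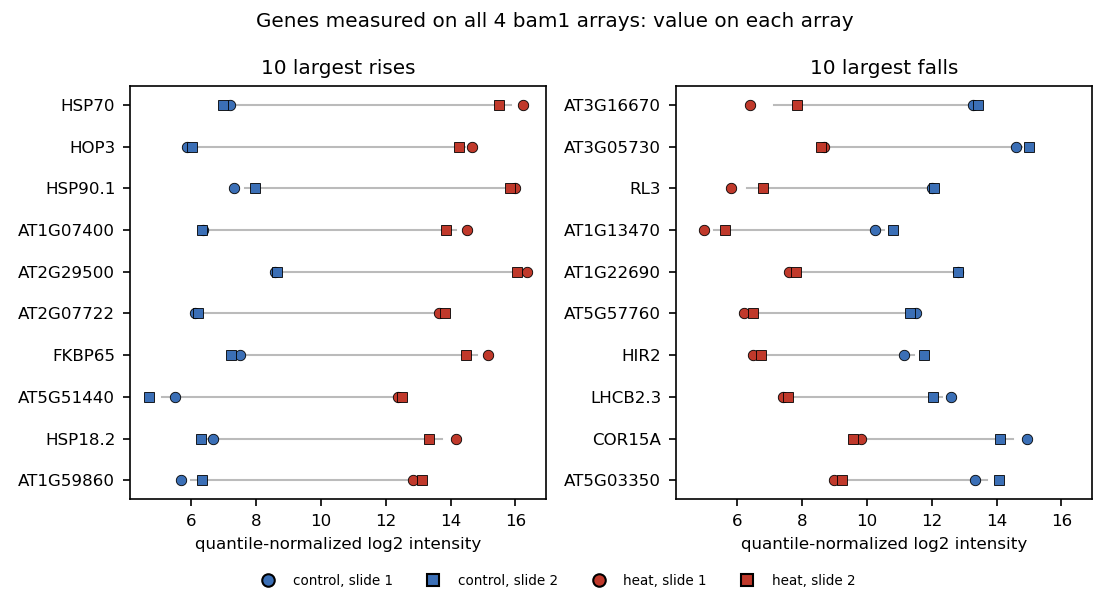
Quantile-normalized log2 intensity on each of the 4 bam1 arrays for the 10 largest rises (left) and the 10 largest falls (right) among features measured on all of them. Circles are slide 1, squares slide 2, blue control and red heat, and grey lines join the group means. In every row the 2 heat values lie on the same side of the 2 control values, and the genes had been chosen as changed the same way on both slides.

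All 7 small heat shock protein genes in the list were higher, with a median change of 10.47 (8.86 when each dim gene was set to its lower limit) and values from 7.25 to 11.36. A further 10 loci had been written into the list under names that the reference table does not give, and were left out. With these put back, a choice made after seeing the data, 15 of 17 were higher and none lower. The exceptions were AT4G21870, whose change of 1.00 did not exceed 2-fold (adjusted P = 0.0283), and AT5G54660 with -0.45 (adjusted P = 0.139). HSP17.6II and HSP17.6A are neighbouring genes of chromosome 5, and closely similar members can share signal on an array.

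Of the 17 genes for HSP70, HSP90 and HSP100 chaperones, 12 were higher and none lower (median 2.24, from 0.38 to 8.76). They included proteins of the cytosol, plastids and mitochondria. HSP101, the cytosolic disaggregase, rose from 8.05 and 8.47 to 13.67 and 14.11, which is 49.5-fold. Its relatives CLPB4 of mitochondria and CLPB3 of plastids changed by 3.11 and 2.24 (adjusted P = 0.000234 and 0.0178), CLPB3 with no call without bam1 control replicate 2 or bam1 heat replicate 1. HSP90.5 of plastids and HSP90.6 of mitochondria changed by 3.34 and 3.03. HSP70B, another inducible HSP70, changed by 4.44 (SE 0.49, adjusted P = 0.00133). The 5 genes without a call were HSP70-1, HSP90.3, HSP90.4, MTHSC70-1 and CPHSC70-2, with changes of 0.38 to 1.52. HSP90.4, the largest of these, was called with the replicate block (adjusted P = 0.00374).

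Among 18 tested HSF genes, 5 were higher and none lower (median 0.76). HSFA2, the amplifier of the heat response, rose from 5.94 and 6.86 to 11.61 and 12.11 (change 5.46, SE 0.45, adjusted P = 0.000539). HSFB1, a repressor of the class B factors, rose from 10.13 and 10.29 to 13.46 and 13.38 (change 3.21). HSFA3 changed by 2.92, HSFA6B by 2.42 and HSFA7A by 2.22. The constitutive master factors HSFA1A, HSFA1B, HSFA1D and HSFA1E changed by 0.04 to 0.86 and were not called. HSFA6B was the dimmest of the 5, with 2.16 and 3.01 in control and 5.97 and 4.05 in heat. It lost its call with normexp (change 0.45, adjusted P = 0.143 in limma) and without bam1 control replicate 1 (change 1.99).

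Of 9 other heat regulators and co-chaperones, 7 were higher and 1 was lower. APX2, a heat-inducible ascorbate peroxidase, was at least 315-fold higher, with 12.78 and 11.88 in heat. The thermotolerance genes HSA32 and BAG6 changed by 5.75 and 3.33, and the co-activator MBF1C by 3.85. HSBP, a negative regulator that binds HSFs, was the lower member, at 11.91 and 12.27 in control and 10.71 and 11.15 in heat (change -1.16, adjusted P = 0.0113), with no call under normexp or without bam1 control replicate 2 or bam1 heat replicate 1. DREB2A, a dehydration and heat factor, changed by -0.41 (adjusted P = 0.566).

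Chaperones of the ER rose as well, 8 of 12 tested genes being higher and none lower (median 1.71). ERDJ3A, a J-domain partner of the ER HSP70, rose from 5.87 and 6.23 to 9.98 and 9.97, which is 15.2-fold. That HSP70, BIP1, rose 4.25-fold and calnexin CNX1 rose 4.11-fold. BZIP60, a factor of the unfolded protein response, changed by 0.13 (adjusted P = 0.579), and BIP3 was not well above background on both arrays of any group.

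**Figure D3:**
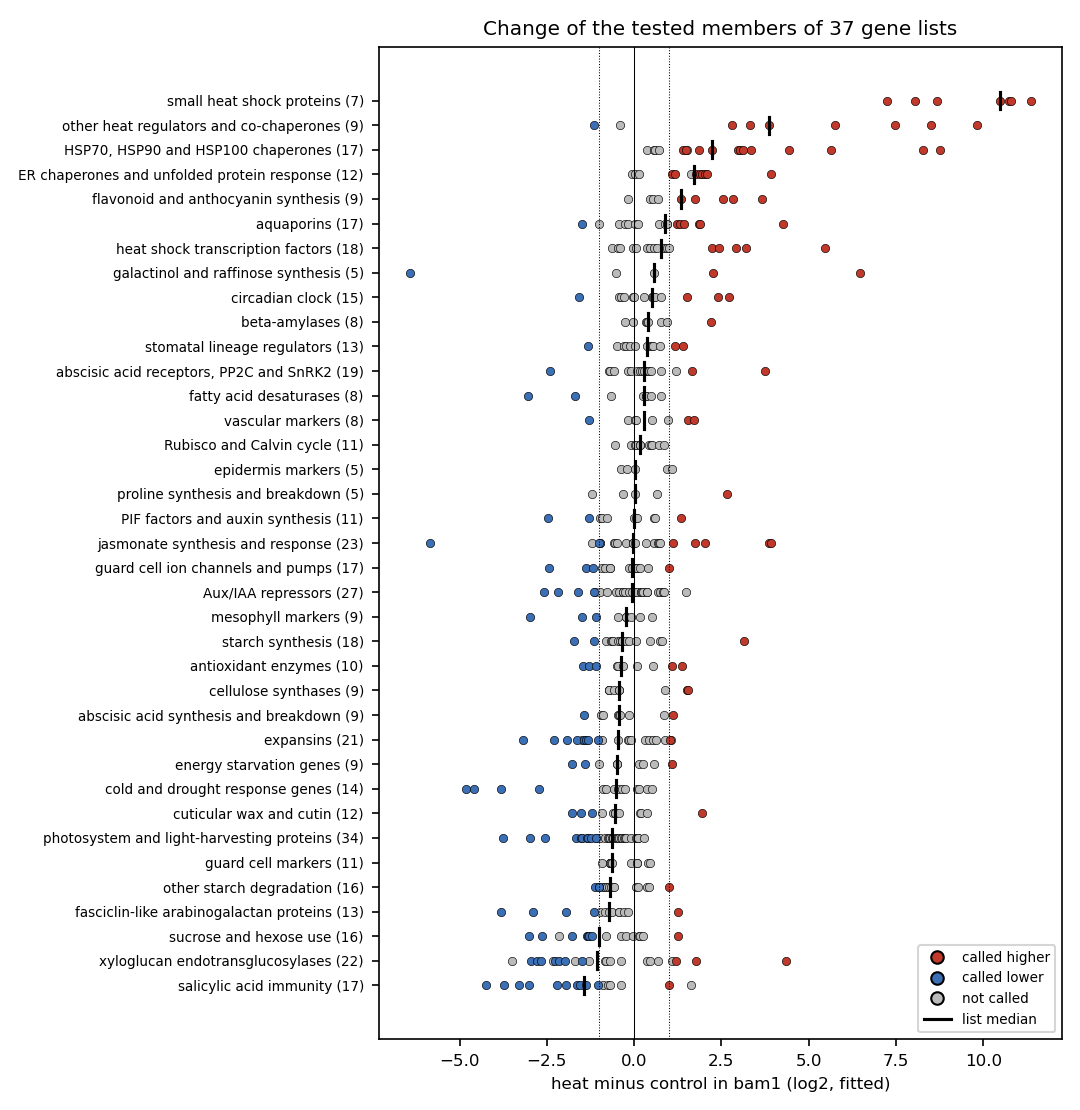
Fitted change (heat minus control in bam1, log2) of each tested member of 37 gene lists, 1 probe for each locus, with the number of tested members in brackets. Red members were called higher, blue lower and grey not called, the short black line is the list median and dotted lines mark a 2-fold change. Small heat shock proteins stand at the top with a median of 10.47, and salicylic acid immunity at the bottom with -1.44.

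Calls among genes of starch turnover are read beside the shares over all loci, 11.6% higher and 11.5% lower, from which they did not stand far apart. The 8 tested β-amylases, which release maltose from starch, include BAM1 itself with its insertion. Only BAM5 of the 8 was called, with 4.87 and 5.06 in control and 7.27 and 7.05 in heat (change 2.19, SE 0.47, adjusted P = 0.0126). That call was lost with normexp (change 0.83) and without bam1 control replicate 1 (2.1) or bam1 heat replicate 1 (2.09). BAM3, the main leaf enzyme, changed by -0.25 and BAM7 by 0.93, and neither was called, although BAM7 was with the 75th percentile. Of 16 other starch degradation genes, 3 were lower and 1, the dikinase gene GWD2, was higher at the fold limit, by 1.00 (median -0.69). GWD2 lost its call with the 75th percentile, normexp, the deposited table and without bam1 control replicate 2 or either heat array, and the number lower ran from 1 without bam1 heat replicate 2 to 5 with the 75th percentile. The α-amylase AMY3 changed by -1.11, the debranching enzyme ISA3 by -1.02 and the phosphorylase PHS2 by -1.01, and each call was lost without at least 1 bam1 array. Of 18 starch synthesis genes, 2 were lower and 1 was higher, and APL4, a subunit of the enzyme that makes ADP-glucose, was 1 of the lower ones (-1.16, no call without bam1 control replicate 1 or either heat array). The 2 plastid glucose 6-phosphate translocators moved in opposite directions. GPT2 stood at 6.81 and 6.96 in heat and 3.43 and 4.04 in control, at least 7.22-fold higher (adjusted P = 0.000793), while GPT1 stood at 11.21 and 11.53 against 13.59 and 12.61 (change -1.73, adjusted P = 0.0105, or 0.0582 without bam1 heat replicate 1).

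Genes for sugar use were more often lower than higher. Of 16 genes for sucrose and hexose use, 7 were lower and 1 was higher (median -1.01). CWINV1, a cell wall invertase that splits sucrose outside the cell, fell 8.01-fold, from 7.39 and 7.71 to 4.61 and 4.48. CWINV3 changed by -2.63, with no call under normexp (-0.9), and the sucrose synthase gene SUS1 by -1.79. The hexose carriers STP1, STP4 and STP13 changed by -1.22, -1.36 and -1.32, and STP1 and STP13 each lost their call without 2 of the 4 bam1 arrays. The phloem sucrose carrier gene SUC2 (-1.28), also a vascular marker, lost its call without bam1 control replicate 2 or either heat array. SUS2, another sucrose synthase gene, was the higher member (1.26, adjusted P = 0.0412), but not with normexp, with all probes kept or without any single bam1 array (adjusted P of 0.0572 to 0.167). AT1G62660, left out of this list by the name check, was also higher (1.46, adjusted P = 0.0268).

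The galactinol synthases, which start the synthesis of raffinose, split sharply. GOLS1 rose 88.7-fold, from 7.41 and 7.18 to 13.76 and 13.77 (adjusted P = 0.000244). GOLS2 rose 4.81-fold, although its call was lost without bam1 control replicate 2 or either heat array. GOLS3, in *Arabidopsis* the cold-inducible one, stood at 11.09 and 10.23 in control and was not well above background in heat, at least 73.5-fold lower (adjusted P = 0.000679). Genes of cold acclimation fell with it. COR15A, which protects plastid membranes in the cold, fell from 14.93 and 14.11 to 9.82 and 9.59, which is 28.2-fold. The dehydrin gene LTI30 fell 24.3-fold and RD29A 14.0-fold. In all, 4 of 14 tested cold and drought response genes were lower and none higher, the other being COR15B (-2.72). The fit of COR15B rests on 1 control array, because its spot on bam1 control replicate 1 gave no value after flagged spots were left out. COR15A and COR15B are neighbours on chromosome 2 and may share signal. RAB18, an ABA-responsive dehydrin, stood at 14.93 and 14.30 in control and 15.28 and 14.68 in heat and was not called (0.37, adjusted P = 0.428).

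Genes for 2 fatty acid desaturases fell. FAD8, the plastid ω-3 desaturase known as cold-inducible, fell 8.16-fold from 10.66 and 11.11 to 7.76 and 7.95 (change -3.03, adjusted P = 0.000461), and FAD3, the ω-3 desaturase of the ER, fell 3.24-fold. Both make trienoic fatty acids. FAD7, the other plastid ω-3 enzyme, changed by 0.34 (adjusted P = 0.473). Of the 8 desaturases tested, 2 were therefore lower and none higher.

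Most guard cell signalling and transport genes were not called, as was true of loci in general (11.6% higher and 11.5% lower). The lack of a call does not show an unchanged level. Of 17 ion channels and pumps, 3 were lower and 1 was higher. SLAH3, a slow anion channel, fell 5.38-fold, from 9.90 and 9.04 to 6.90 and 7.19. ABCB14, a malate importer, changed by -1.39 and the proton pump gene AHA2 by -1.19. SLAC1, the main slow anion channel of guard cells, changed by -0.70 (adjusted P = 0.258), the inward potassium channel KAT1 by -0.91 (0.0199) and the outward channel GORK by 0.41 (0.307), and none of these was called, apart from KAT1 as given above for the markers. AKT2 was the higher member, at the fold limit (1.00, adjusted P = 0.046), and lost its call with the 75th percentile, the deposited table, all probes kept, the bam1 arrays alone and without bam1 control replicate 2 or either heat array. Of 19 ABA receptors, phosphatases and kinases, 2 were higher and 1 was lower. HAI1, a phosphatase of clade A, rose 13.5-fold from 6.44 and 6.19 to 10.20 and 9.95 (adjusted P = 0.000147), and the related HAB1 rose 3.13-fold. The receptor gene PYL6 was at least 3.83-fold lower. OST1, the kinase of stomatal closure, changed by -0.08 (adjusted P = 0.93). Of 9 genes for ABA synthesis and breakdown, the breakdown genes CYP707A1 (-1.43) and CYP707A4 (1.1) were called in opposite directions, the former not after any bam1 array was left out (adjusted P of 0.0715 to 0.143). Among 13 stomatal lineage genes, EPFL9 (1.41), which promotes stomata, and the receptor gene ERL2 (1.16) were higher and FLP (-1.31), which limits guard cell divisions, was lower. ERL2 lost its call without bam1 control replicate 1 or bam1 heat replicate 2.

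Water channels were more often higher, 6 of 17 aquaporins being higher and 1 lower (median 0.87). RD28, a plasma membrane aquaporin, rose 19.1-fold from 5.76 and 5.12 to 10.02 and 9.37 (adjusted P = 0.000642). PIP2B, its neighbour on chromosome 2, rose 3.71-fold, and shared signal between the pair was not tested. TIP1;1, of the vacuolar membrane, rose 3.65-fold from an already high level. PIP2;8 was the lower member (-1.49, adjusted P = 0.00113), with no call under normexp (-0.85). With the 75th percentile or the deposited table, PIP2A (0.91) and TIP2;2 (0.97 and 0.98) lost their higher calls. DELTA-TIP was then called lower (-1.51), as it was with normexp (-1.07). PIP2;4 lost its higher call with normexp (0.35) and without bam1 control replicate 1 or bam1 heat replicate 2. PIP1B and PIP1;4 gained a higher call without bam1 heat replicate 2.

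Cell wall genes were more often lower. Of 21 tested expansins, which loosen walls, 8 were lower and 1 was higher (median -0.45). Without bam1 heat replicate 2 there were 4 lower, and the higher member, EXLB1 (1.03), lost its call with the 75th percentile, with all probes kept and without any single bam1 array. EXLA2, an expansin-like gene, fell 9.04-fold and EXPA11 fell 4.91-fold, the latter from 10.76 and 11.23 to 8.79 and 8.61. Of 22 tested xyloglucan endotransglucosylases, which cut and rejoin wall polymers, 7 were lower and 3 were higher (median -1.06), with 4 lower without bam1 control replicate 1 or bam1 heat replicate 2. XTH15 fell 7.65-fold and XTH4 6.84-fold, although the call of XTH4 was lost without any single bam1 array (adjusted P of 0.0601 to 0.0764). XTH11, by contrast, was 20.2-fold higher, with 8.29 and 9.32 in heat and 4.29 and 4.64 in control. It was not well above background in control, but these values needed no raising, so 20.2 is the estimate and no lower limit. Of 13 tested fasciclin-like arabinogalactan proteins, which are wall glycoproteins, 4 were lower and 1 was higher. FLA2 fell 14.0-fold, from 13.32 and 13.51 to 9.43 and 9.79, and FLA13 fell 7.45-fold. CESA7 and CESA8, cellulose synthases of secondary walls, changed by 1.54 and 1.52, the latter not called without bam1 control replicate 1 or bam1 heat replicate 2. CESA7 is also a vascular marker, and the other vascular marker that rose was the sugar exporter gene SWEET12 (1.71), with no call without bam1 control replicate 1 or bam1 heat replicate 2.

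Of 34 photosystem and light-harvesting genes, 10 were lower and none higher (median -0.63, from -3.76 to 0.28). This count depends on the scaling, and 23 of the 34 were lower with the 75th percentile or in the deposited table (median -1.41). LHB1B1, an antenna protein of photosystem II, fell 13.6-fold on its brightest probe, from 17.39 on both control arrays to 13.57 and 13.68. Another of its probes was at least 42.4-fold lower. LHCB2.1 fell 7.89-fold and the photosystem I subunit gene PSAH2 5.90-fold, and LHCB2.3, outside the list, fell 28.3-fold. CAB1 stood at 17.91 and 17.92 in control and 17.67 and 17.26 in heat and was not called. LHCB2.1, CAB2 and LHCB3 are also 3 of the 9 mesophyll markers and were the 3 of them that fell, while the summed level of those markers was at most 998442 in heat and at least 1148087 in control. LHCB2.1 and LHCB2.2 are neighbours on chromosome 2 and may share signal. None of 11 Rubisco and Calvin cycle genes was called, with changes of -0.54 to 0.85, and their median was 0.17 after quantile normalization and -0.36 with the 75th percentile. RBCS1A, a small subunit of Rubisco and a mesophyll marker, changed by -0.08 (adjusted P = 0.71).

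Immune genes of the salicylic acid pathway were lower in 10 of 17 tested members and higher in 1 (median -1.44), against a background of 11.5% lower. The transcription factor gene WRKY38 fell 19.1-fold, from 9.53 and 10.61 to 5.50 and 6.13. NIMIN1, which binds the receptor NPR1, fell 13.2-fold, from 10.40 and 10.79 to 6.71 and 7.04. SARD1 and CBP60G, activators of salicylic acid synthesis, changed by -3.30 and -3.01, the synthesis gene ICS1 by -1.56 and the exporter gene EDS5 by -2.22. ICS1 was under the fold limit with normexp (-0.89). EDS1, another lower member (-1.03), lost its call with the 75th percentile, normexp, the deposited table and without bam1 control replicate 1 or bam1 heat replicate 1. WRKY53 (-1.44) and PBS3 (-0.9), not called in the main fit, were called lower in some alternatives. BGL2, a glucanase also called PR2, was higher by 1.00 (adjusted P = 0.00506), but under the fold limit with normexp (0.82) and without bam1 control replicate 2 (0.92) or bam1 heat replicate 2 (0.89). HIR2, a hypersensitive-induced reaction gene outside the list, fell 28.8-fold.

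Jasmonate genes moved both ways, with 5 of 23 higher and 2 lower (median -0.02). Without bam1 control replicate 1 these were 3 and 4, and without bam1 heat replicate 1 they were 3 and 1. The vegetative storage protein genes VSP1 and VSP2 rose 15.3-fold and 14.5-fold. They are neighbours on chromosome 5, VSP1 standing at 7.24 and 6.23 in control and 10.29 and 11.05 in heat. PDF1.2, a defensin gene induced by jasmonate with ethylene, was at least 15.1-fold lower, from 8.50 and 8.04 to values near background. Of 9 tested flavonoid and anthocyanin genes, 5 were higher (3 without bam1 heat replicate 2) and none lower (median 1.33), whereas 6 further members were not tested for low signal. Chalcone synthase TT4, the first enzyme of the pathway, rose 12.5-fold, from 5.78 and 6.98 to 9.82 and 10.23. MYB75, an activator of anthocyanin synthesis, rose 7.09-fold. TT19, needed for anthocyanin transport, was at least 3.31-fold higher, but not called without bam1 control replicate 2 or bam1 heat replicate 2.

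Smaller lists each held a few calls. Among 15 tested clock genes, the morning factor CCA1 (2.71) and its relative RVE1 (2.40) were higher, as was LNK1 (1.51), and the evening repressor PRR5 (-1.59) was lower. CCA1 lost its call without bam1 control replicate 2 or either heat array. Of 27 loci with an IAA name, most of them Aux/IAA repressors of auxin response, 4 were lower (2 without bam1 control replicate 1 or bam1 heat replicate 2) and none higher, led by IAA6 (-2.59) and IAA3 (-2.17). IAA29 (-1.60) lost its call without any single bam1 array. Of 11 genes for PIF factors and auxin synthesis, PIF3 (1.34) was higher while PAR1 (-2.46) and TAA1 (-1.28) were lower, TAA1 not after bam1 control replicate 2 or either heat array was left out. P5CR, the last enzyme of proline synthesis, rose 6.38-fold, from 11.59 and 11.80 to 14.21 and 14.52, and was the only 1 of 5 proline genes called. ERD5, a proline dehydrogenase, changed by -1.22 (adjusted P = 0.137) and was called lower with the replicate block (0.0287). Of 9 energy starvation genes, TPS10 (-1.41) and TPS11 (-1.77) were lower and TPS9 (1.09) was higher, TPS9 not without bam1 control replicate 2. Of 12 wax and cutin genes, 3 were lower, among them CER2 (-1.79) and CER4 (-1.52). CER4 lost its call with normexp (-0.4) and without bam1 control replicate 1 (-1.34). CER1, needed for alkane synthesis, was higher (1.94). Of 10 antioxidant enzymes, the plastid peroxidases SAPX (-1.47) and TAPX (-1.09) and the superoxide dismutase gene FSD1 (-1.29) were lower, and CAT2 (1.09) and CSD2 (1.37) were higher. CSD2 was not called after scaling to the 75th percentile (adjusted P = 0.0577) or without bam1 control replicate 2 or bam1 heat replicate 1. CAT2 was under the fold limit with the 75th percentile (0.87), with normexp (0.89) and without bam1 control replicate 2 (0.98) or bam1 heat replicate 2 (0.93). With the replicate block 9 further members of the lists were called, HSP90.4, CRT1A, HAI2, EXPB3 and LTP1 higher and SUS4, ERD5, LHCB4.2 and WRKY53 lower, and none lost its call.

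The largest falls measured on all 4 arrays were AT3G16670, from 13.27 and 13.42 to 6.41 and 7.84 (74.2-fold, adjusted P = 0.000694), and AT3G05730, from 14.59 and 14.99 to 8.68 and 8.59 (71.3-fold). RL3, a small MYB-type gene, fell 52.9-fold, from 12.00 and 12.07 to 5.81 and 6.80. AT1G13470 (37.5-fold), AT1G22690 (34.2-fold), AT5G57760 (33.6-fold) and AT5G03350 (24.0-fold) followed, beside HIR2, LHCB2.3 and COR15A. Among features that heat brought below background, SPL4, a flowering factor, was at least 79.2-fold lower, with 10.90 and 10.42 in control, AT5G44550 at least 39.2-fold and AT1G02360 at least 29.9-fold.

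Whether the heat response differed from that of Col-0 was tested feature by feature as the difference of the changes, in the same limma fit. It called 1 of 29615 features (0.00338%), while 814 had an unadjusted P below 0.05. That feature, AT3G59170, was at 6.33 and 6.52 in bam1 control and between 1.98 and 2.16 on the other 6 arrays. It was not well above background on those 6, so a fall with heat in Col-0 could not have been seen. No member of the 37 lists was called for the difference. For the small heat shock proteins the change was nevertheless larger in bam1 than in Col-0 in 7 of 7 members (medians 10.47 and 6.48), and in 5 of them with an unadjusted P below 0.05. With the left-out loci this was 16 of 17 members, 11 of them with an unadjusted P below 0.05. The medians rest in part on control values that were not well above background. For HSP70, HSP90 and HSP100 chaperones the change was larger in bam1 in 13 of 17 members, in 5 of them with an unadjusted P below 0.05, and it was smaller in 4 (HSP90.3 the furthest, with a difference of -0.42). The largest differences among these 17 were those of HSP70B and HSP101. The change of HSP101 was 5.63 in bam1 and 3.51 in Col-0, a difference of 2.12 (95% interval 0.87 to 3.37 before adjustment, adjusted P = 1). For HSP70B it was 4.44 and 1.60, a difference of 2.84 (1.17 to 4.51, adjusted P = 1). The ER chaperones gave 4 of 12 members with a larger change in bam1. Some lists outside the heat genes were one-sided too. The difference lay above 0 in 11 of 11 guard cell markers and 9 of 9 flavonoid and anthocyanin genes. It did so in 2 of 17 salicylic acid genes and 0 of 8 β-amylases, among them BAM1, which carries the insertion. Others were mixed, with 12 of 21 expansins, 13 of 27 loci with an IAA name, 14 of 23 jasmonate genes and 13 of 34 photosystem and light-harvesting genes. The share of all tested features with a difference above 0 was not counted. None of these counts, those of the heat lists included, thus has a background to be read against, and members of a list are not independent replicates. HSFA2 changed by 5.46 and 5.12, a difference of 0.34 (-1.19 to 1.86). HSFB2A and HSFB2B, class B repressors, changed by 0.99 and 0.93 in bam1 and by 2.3 and 1.91 in Col-0, with differences of -1.30 (-2.27 to -0.34) and -0.98 (-1.56 to -0.41) that were not called either (adjusted P = 1 for both). These intervals are wide, and a P above the threshold does not show equal responses.

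**Figure D4:**
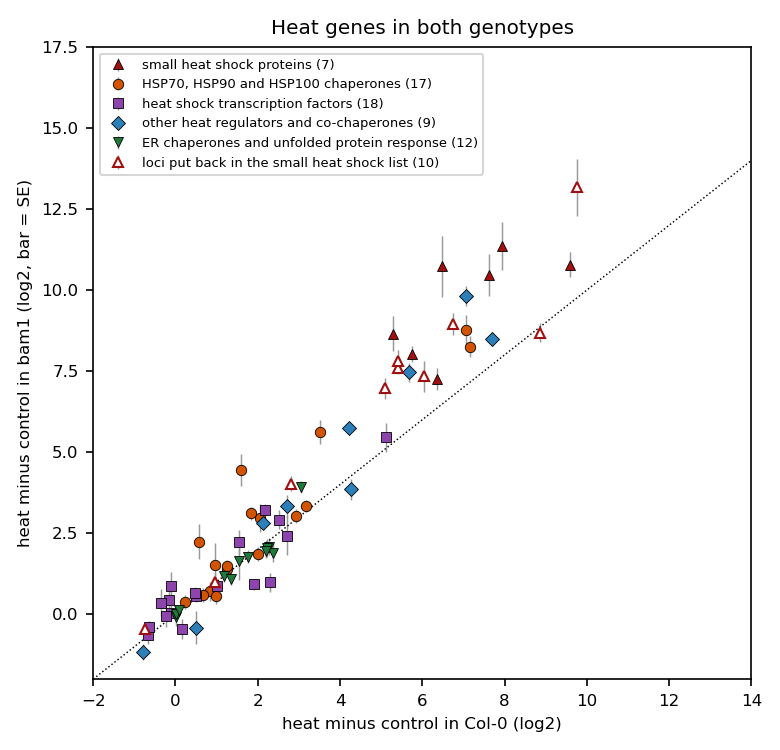
Fitted heat minus control (log2) in Col-0 (horizontal) and in bam1 (vertical, bars show the standard error of the bam1 change) for the tested members of 5 heat lists and 10 loci put back in the small heat shock protein list. Points above the dotted line of equal change moved further in bam1, and all 7 small heat shock proteins of the list lie above it, although no difference was called.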

How the data were processed

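Guard cell RNA was measured in 1 colour on 8 Agilent *Arabidopsis* arrays. The authors deposited the intensity of each spot from Feature Extraction (11.5.1.1 in the file headers), background-subtracted and not normalized between arrays. They also deposited a log2 table, of which 99.7% of values lay within 0.05 of log2 intensity minus the array's 75th percentile, centred on each probe's median. Control and flagged spots were left out, spots of a probe averaged, and log2 intensities quantile-normalized, as in the study's methods. A probe was tested where both arrays of any of the 4 groups had it well above background. Group means were fitted over all 8 arrays with limma 3.58.1 in R 4.3.3, a step tested on simulated data. There, 200 of 29455 probes were changed, and 66% of those changed by 1.5 in log2 were called. For larger changes 96% to 98% were called, and 19 unchanged probes were called falsely. The simulated noise had no part shared by arrays of a slide, so this test does not cover slide effects. Replicates are pools of plants on different slides, and the main fit has no term for the slide. P therefore rests on a spread that mixes pools and slides and is estimated over all 4 groups. The replicate block adds the slide.

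Of 43603 probes, 34348 had a locus through a RefSeq gene table. No coordinates or sequences were used here. Lists took the brightest probe of each locus. Members and lists were chosen with earlier results of these data known, and 14 members were left out because the table gives their locus no such name. The text names BAM1, up to 3 called members of each list with the largest change, the 10 largest rises and falls, the 5 largest lower limits each way and features called for the difference. Other genes were named after their values were seen.

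Deviations from group means correlated between same-numbered arrays, which share a slide, in all 6 pairs of groups (r of 0.28 to 0.63), so the numbers pair the arrays. Alternatives were the 75th percentile, normexp (offset 50, median signals), the deposited table, other filters, the replicate block, the bam1 arrays alone, trend and robust options, 1 probe per locus, no fold limit, an equal-variance test of each feature as in the methods, and omission of single arrays.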

Additional observations from a re-analysis of the deposited data

Results flagged for a closer look

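AT3G59170 was called in limma's test of the bam1 minus Col-0 response, at -4.33 in log2 (95% interval -4.83 to -3.82 before adjustment, adjusted P = 0.0106). It fell in 2 of 2 slide pairs of bam1. Signals before normalization were 78.2 and 59.7 in bam1 control and 3.49 to 6.82 on the other 6 arrays, where the probe was not well above background, so the level in bam1 heat was at least 4.21-fold lower. In Col-0 the probe was that dim without heat too, so a fall there could not have been seen. The difference therefore rests on the level in bam1 control. The adjusted P was above 0.05 with the 75th percentile (1), normexp (0.728), the deposited log2 table (1), no filter on dim probes (0.0525), trend and robust options (1) and without any single array (0.068 to 0.212). With groups of 2 arrays, no array was tested as an outlier within its group.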

How the results depend on the processing

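The count of 6626 features called stayed within 1.5 times under the 75th percentile (6809), the deposited log2 table (6804), all probes kept (6270), only probes well above background on the 8 arrays (5146 of 25341), the replicate block (7104, of which 6616 were among the 6626), the 4 bam1 arrays alone (6426), trend and robust options (6616) and 1 probe for each locus (5179). Leaving out each bam1 array gave 5601 to 6293. Normexp gave 3770 (3650 shared, all in the same direction) and no fold limit 10893, the latter by construction. The methods' t-test gave 5150 features before and 4 after Benjamini-Hochberg adjustment. The cause of the lower normexp count was not tested. Among the lists, the photosystem genes moved most with the scaling, from 10 to 23 lower with the 75th percentile. The share of calls that were higher ranged from 47.3% to 52.0%, and the median of all features moved by 0.03 at most.

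For the difference of the responses, the count of 1 became 0 under the 75th percentile, normexp, the deposited table, all probes kept, only probes well above background on the 8 arrays (which omits this one) and trend and robust options. It was 1 with the replicate block, no fold limit and 1 probe for each locus. Leaving out each array gave 0 to 1, and the 1, without bam1 heat replicate 2, was AT4G22820 (6.54, adjusted P = 0.0427) and not AT3G59170. Of the 116 features named by rule, no change reversed. Under the replicate block none lost its call, and 17 did with normexp, 3 with all probes kept and 1 with the 75th percentile. Those lost with normexp were BAM5, ISA3, PHS2, APL4, CWINV3, TPS9, AHA2, FLP and ERL2. The others were PYL6, CYP707A1, CYP707A4, CESA7, CESA8, TAA1, TT19 and CER4. Putting back the 14 left-out loci moved the small heat shock proteins to 15 of 17 higher, sucrose and hexose use to 2 higher and the guard cell markers to 1 lower. A search of promoters for heat shock elements was not run. Each contrast rests on 2 arrays against 2, and dim features on bam1 heat replicate 2 limit it further.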

Other observations

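Gene families were also scanned by the letters of their symbol, for the families with at least 15 tested loci, a choice made after seeing the data and given with no test. Members of the IQD family, which bind calmodulin and microtubules, were lower in 10 of 24 loci and higher in none (median change -0.66). Members of the RABA family, small GTPases of secretory traffic, were lower in 7 of 17 and higher in 1 (median -0.81), and EXO genes, which include exocyst subunits, were lower in 6 of 16 and higher in none. Cysteine-rich receptor-like kinases (CRK) were lower in 8 of 25 loci and higher in 1, and AGP genes for arabinogalactan proteins lower in 8 of 23 and higher in 3. UGT genes for glycosyltransferases were higher in 12 of 40 and lower in 5. EMB genes, named for embryo-defective mutants, were higher in 26 of 148 and lower in 2. Ribosomal protein genes with RPL and RPS symbols had 2 of 22 and 1 of 24 higher, with medians of -0.01 and -0.02. These shares stand beside 11.6% higher and 11.5% lower over all loci. Of 5623 loci with several tested features, 2 had features called in opposite directions and 686 had some called and others not.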
